A study of Mus musculus with 70 samples.

Results

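Gene expression was compared between the parental RENCA line (P0) and the P6 line of the kidney-to-lung metastasis route (K-LM P6). RENCA is a mouse renal adenocarcinoma line of BALB/c origin with a wild-type Vhl gene, and the cells carried GFP delivered by a lentiviral vector. For the K-LM line, 100000 cells were placed under the left kidney capsule of female wild-type BALB/c mice aged 6 weeks, cells that had spread to the lung were taken out, cultured to remove other cells and implanted again under the kidney capsule, and this was done for 6 cycles. P0 stands for cells that had never been in a mouse. KPT P6, the line kept from the primary kidney tumours over the same 6 cycles, stands beside them as the line that shared the implantation, the culture and the number of passages but not the spread to the lung. No drug or gene deletion separated the groups, and all of them carried the GFP vector.

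By their titles, 7 of the 70 arrays of the series belonged to the comparison. They were 4 arrays of P0 and 3 of K-LM P6. By their replicate numbers they were taken as 5 RNA samples, though the titles do not state that repeat arrays used the same RNA. Each of the 2 P0 replicates had an array in a first set and another, titled batch2, on the slide that held all K-LM P6 arrays. This slide was scanned later than the other 8 slides and with another version of the scanner software, so the 2 repeat P0 arrays on it were the comparator and the 2 first P0 arrays served as a check. Its 8 arrays were completed by 3 repeat arrays of KPT P6 (replicates 1, 2 and 4). The sources used here do not say whether the 3 K-LM P6 samples came from separate mice or the 2 P0 samples from separate cultures, so the p-values measure the spread between these samples. P0 had been kept in culture only, so passage through a mouse, time in culture and spread to the lung cannot be told apart in P0 against K-LM P6.

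The lists followed here have well-known biology. Acute-phase proteins are secreted mainly by the liver during inflammation, and interleukin 6 switches many of them on by way of its receptor, the JAK kinases and the transcription factor STAT3, with NF-kB and C/EBP proteins acting on the same genes. Complement proteins tag cells and microbes for removal, and epithelial cells of the kidney can make several of them. Collagens, fibronectin, laminins and proteoglycans build the matrix around and under cells, and are made in the largest amounts by fibroblasts, which makes the purity of a tumour-derived culture a matter of measurement.

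Each array measured 55681 probes, of which 28026 could be named, for 21154 gene symbols. A level is the log2 processed signal of a probe minus the 75th percentile of its array over the probes that were above background on all 70 arrays, so a level of 0 is as bright as that percentile, and a difference of 1 between 2 arrays is a doubling. Between 32.9 and 36.7 percent of probes were above background on the 5 arrays compared, and 27.9 and 29.8 percent on the 2 first P0 arrays. Repeat and first arrays of the same P0 replicate correlated at 0.989 and 0.990 over probes, and the 2 P0 replicates on the later slide at 0.989. The K-LM P6 arrays correlated with each other at 0.990 to 0.995, and P0 with K-LM P6 at 0.933 to 0.954. An index of RNA quality, the mean level of 17 very long mRNAs minus that of 75 ribosomal protein mRNAs, was -6.74 and -6.88 in P0 and -7.05 to -7.16 in K-LM P6, and -7.29 and -7.53 on the first P0 arrays; its part in the results was not tested beyond the fit with it as a covariate. Renal epithelial keratins Krt8 and Krt18 were above background in every sample, at levels of 1.53 and 1.89 (Krt8) and 3.56 and 3.92 (Krt18) in P0 and of 0.95 to 1.81 and 3.38 to 3.65 in K-LM P6, while Pax2, Lhx1, Cdh16 and Epcam were too dim to be tested.

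About 1 gene in 6 differed between the lines. With limma and an adjusted p of 0.01 or less, 3093 of 20028 probes tested passed (15.4%), of which 1695 were higher (8.46%) and 1398 lower (6.98%) in K-LM P6. Represented by their brightest probe, 2021 of 11263 gene symbols passed (17.9%), 1184 higher (10.5%) and 837 lower (7.43%), with a median log2 change of -0.02 over all symbols tested. A gene that is above background only in K-LM P6 had to be higher in order to be tested, and, by their brightest probe, 424 of the 1184 higher symbols were not above background in either P0 sample, against 49 lower symbols that were not above background in any K-LM P6 sample. Among the 9967 symbols above background in all 5 samples, 625 were higher (6.27%) and 761 lower (7.64%), so that the balance of directions depended on this set, and it also turned to 43.5% to 44.8% of called probes being higher, from 54.8%, under the other 3 scalings named in the closing section. Leaving out P0 replicate 1, P0 replicate 2 or K-LM P6 replicate 1 left 1968, 2008 and 1832 called probes. Through these fits 172 genes were followed, 170 of them called, and with 1 sample left out 167 to 171 were still tested and 20 to 38 lost their call. Those among them that are named are given at the end of their group, with the highest adjusted p (limma) in brackets. Between K-LM P6 and KPT P6, 2983 of 21012 probes differed (14.2%), 1139 higher (5.42%) and 1844 lower (8.78%) in K-LM P6, and 1753 of 11660 symbols (15%), 731 higher (6.27%) and 1022 lower (8.77%). Without KPT P6 replicate 1, 2 or 4, or K-LM P6 replicate 1 or 2, this count of probes was 1507, 1541, 1145, 1220 and 1580.

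The largest rises were in genes that P0 did not measurably express. Mgp, matrix Gla protein, an inhibitor of tissue calcification, had levels of -9.96 and -9.25 in P0, below background, and of -0.12, 0.25 and 1.76 in K-LM P6. This was a log2 change of 10.23 (SE 0.53, adjusted p = 2.28e-06), and, against the lowest signal that counted as measured, K-LM P6 was at least 241-fold higher. Krt20, an intermediate filament protein of intestinal and urothelial epithelium, stood at -9.59 and -8.57 in P0 and at 0.79, 0.17 and 0.79 in K-LM P6, at least 233-fold higher (log2 change 9.66, SE 0.29, adjusted p = 1.27e-07). The genes named as largest rises and falls were picked among those whose P0 and K-LM P6 samples did not overlap. Mgp and Krt20 were also higher than in KPT P6, by 4.86 (limma, adjusted p = 0.000353) and 2.61 (adjusted p = 0.000394) on the log2 scale.

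Anxa8, an annexin that binds membranes in the presence of calcium, was measured in both P0 samples, at -4.84 and -5.89, and rose to 2.70, 2.94 and 2.89, a log2 change of 8.21 (SE 0.27, adjusted p = 1.69e-07). Its level in KPT P6 was 2.54 on average, and the difference of 0.30 from K-LM P6 did not pass the test (adjusted p = 0.366). The other 7 of the 10 largest rises were not above background in P0. Among them were Tmsb4x, which encodes an actin-binding thymosin (log2 change 8.54, at least 87.6-fold), Fn1, fibronectin (8.38, at least 85.0-fold), Uox, urate oxidase (8.24, at least 62.1-fold), Col6a3, a chain of collagen VI (8.17, at least 108-fold), the unnamed transcript 4930550L24Rik (7.65, at least 86.1-fold) and Adamts2, a protease that trims procollagen (7.47, at least 36.0-fold). Of these, Uox, 4930550L24Rik and Adamts2 were also higher than in KPT P6, by 1.87, 1.11 and 4.00 on the log2 scale, and Tmsb4x, Fn1 and Col6a3 were not called against it.

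The largest falls were smaller than the largest rises and were led by a growth factor. Igf1, insulin-like growth factor 1, had levels of -2.67 and -3.82 in P0 and of -8.35, -7.59 and -7.80 in K-LM P6, where no sample was above background, so that it was at least 13.8-fold lower (log2 change -4.67, SE 0.33, adjusted p = 1.44e-05). Aqp5, a water channel, stood at -1.96 and -0.23 in P0 and at -5.93, -6.28 and -4.80 in K-LM P6 (log2 change -4.58, SE 0.52, adjusted p = 0.000333). Ogn, osteoglycin, a small leucine-rich proteoglycan, went from -3.84 and -4.71 to levels between -8.96 and -8.50, at least 6.74-fold lower (log2 change -4.52). KPT P6 lay between P0 and K-LM P6 for these 3 genes. The log2 differences of K-LM P6 from KPT P6 were -3.23 for Igf1 (at least 5.11-fold lower), -2.49 for Aqp5 and -3.12 for Ogn (at least 2.55-fold lower). All 3 passed the test.

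The remaining 7 of the 10 largest falls were of mixed function. Themis, a T cell signalling adaptor (log2 change -4.24, at least 6.2-fold lower), and Plekhg4, a guanine nucleotide exchange factor (-3.95, at least 5.74-fold lower), were not above background in K-LM P6. Ces2g, a carboxylesterase (-3.97), Cysltr1, a receptor for cysteinyl leukotrienes (-3.78), Echdc2, a mitochondrial hydratase-like protein (-3.72), Gsta3, a glutathione transferase (-3.45), and Gpd1, the cytosolic glycerol 3-phosphate dehydrogenase (-3.40), completed the list. Gpd1 had levels of -0.24 and -0.38 in P0 and of -3.95, -3.30 and -3.87 in K-LM P6. Gpd1 and Gsta3 did not differ from KPT P6 by the test (adjusted p = 0.0224 for Gpd1), and the other 5 were lower in K-LM P6 than in KPT P6. The call was lost for Gsta3 (0.0385) without P0 replicate 1 or K-LM P6 replicate 1 and for Echdc2 (0.0225) without either P0 sample.

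**Figure D1:**
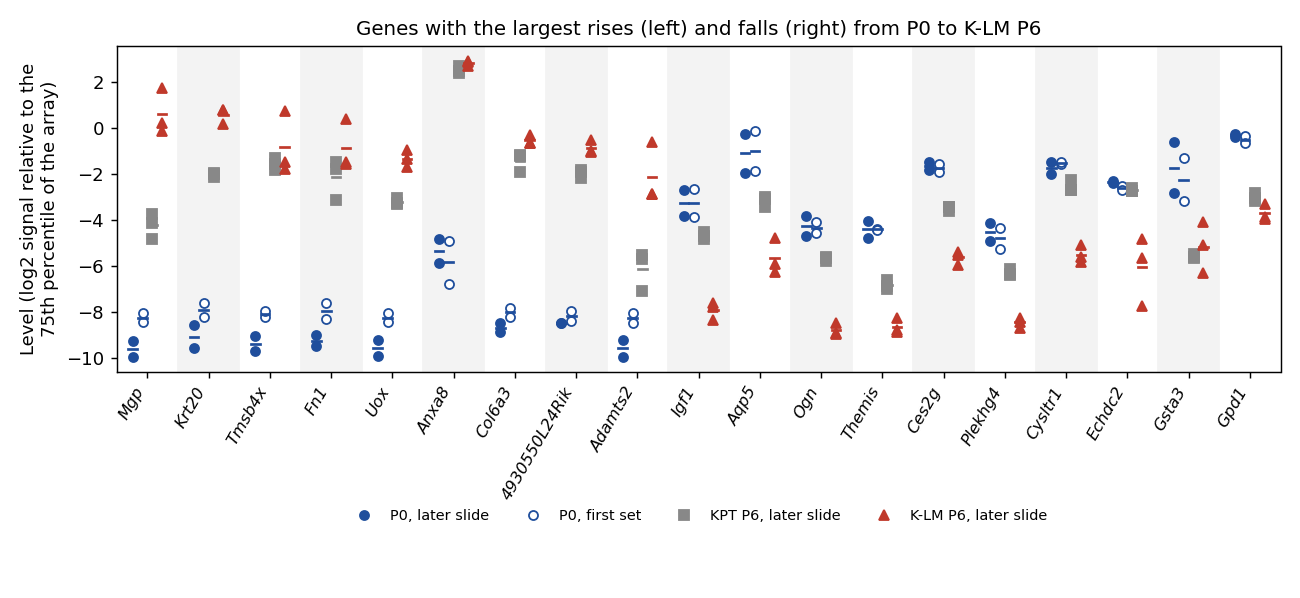
Level of 19 of the 20 genes with the largest rises and falls (vertical axis, log2 signal relative to the 75th percentile of the array) in P0 on the later slide (filled circles), P0 in the first set (open circles), KPT P6 (squares) and K-LM P6 (triangles); each symbol is 1 array and short lines are group means. The 3 K-LM P6 arrays lie away from both P0 arrays for each gene, which the choice of genes required. The dim P0 levels lie near -8 on the first arrays and between -8.5 and -10 on the later slide.

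Acute-phase proteins are secreted in inflammation, in the body mostly by the liver. Of 27 members, 26 had a probe and 17 were tested, 14 of them higher and 0 lower in K-LM P6, beside 10.5% of all symbols higher, with a median log2 change of 3.84. Of the 10 members above background in all 5 samples, 9 were higher (median 3.42), beside 6.27% of such symbols. The same 14 genes were also called between K-LM P6 and KPT P6, each higher in K-LM P6, beside 6.27% of all symbols higher in that comparison. Both comparisons use the same K-LM P6 arrays, so the second call is no separate support for the first. Hp, haptoglobin (log2 change 2.42, adjusted p = 0.0277), Itih4 (0.89) and Cp, ceruloplasmin (-0.11), did not pass the test, and 9 members with a probe, including Crp and the fibrinogen chains Fga, Fgb and Fgg, were too dim to be tested.

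The serine protease inhibitors of the Serpina3 cluster stood apart within this list. Serpina3f had levels of -4.46 and -5.38 in P0 and of 1.67, 1.94 and 1.98 in K-LM P6 (log2 change 6.78, SE 0.28, adjusted p = 6.10e-07), and KPT P6 was at -4.29, near P0. Serpina3n, a mouse counterpart of antichymotrypsin, was at -5.57 and -7.83 in P0, where 1 of 2 arrays was above background, at -1.72, -0.87 and -1.19 in K-LM P6 and at -9.30 in KPT P6. K-LM P6 thus exceeded P0 by 5.44 on the log2 scale (SE 0.54, adjusted p = 0.000138), and it was at least 63.8-fold higher than KPT P6, where no array was above background (log2 difference 8.04, adjusted p = 3.6e-05). Serpina3m (6.75, at least 23.1-fold) and Serpina3i (6.38) rose with them and were at least 22.6-fold and 72.3-fold higher than in KPT P6, and the cluster's genes are close copies whose probes may share signal.

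Serum amyloid A genes, whose products travel on lipoproteins in inflammation, formed a second group. Saa3 had levels of -2.54 and -2.81 in P0 and of 1.20, 1.23 and 2.08 in K-LM P6 (log2 change 4.18, SE 0.32, adjusted p = 2.56e-05), while KPT P6 was at -3.84. Saa1 rose by 3.52, and Saa2, not above background in P0, by 5.15 (at least 9.09-fold); these 2 are near-identical genes. The acid glycoproteins Orm1, Orm2 and Orm3 rose by 4.01, 3.84 and 2.86, and KPT P6 lay between P0 and K-LM P6 for all 3. Ptx3, a pattern recognition protein (3.99), Lrg1, a glycoprotein tied to TGF-beta signalling (3.33), Lcn2, an iron-siderophore carrier released by injured kidney tubules (2.29), and Lbp, which binds bacterial lipopolysaccharide (1.19), made up the rest. Lcn2 was bright in every sample, at 1.90 and 0.80 in P0 and 3.54 to 3.76 in K-LM P6. Significance was lost for Ptx3 (0.0139) without P0 replicate 1, for Lcn2 (0.0151) without P0 replicate 2 and for Lbp (0.0315) without P0 replicate 2 or K-LM P6 replicate 2.

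Complement genes split. Of 33 members, 16 were tested, with 5 higher, 1 lower and a median log2 change of 0.41, beside 10.5% of all symbols higher and 7.43% lower. Of the 10 above background in all 5 samples 1 was higher and 1 lower, near the shares of all such symbols (6.27% and 7.64%). C4b, a component of the classical and lectin pathways, had levels of -8.34 and -9.18 in P0 and of -1.28, -1.19 and -1.71 in K-LM P6, at least 59.4-fold higher (log2 change 7.37, SE 0.27, adjusted p = 3.08e-07). Cfb, factor B of the alternative pathway, went from -8.40 and -8.68 to -1.89, -1.54 and -1.94, at least 45.1-fold higher (log2 change 6.75, SE 0.18, adjusted p = 7.87e-08). Both stood higher than in KPT P6, by 3.86 and 4.45 on the log2 scale. The inhibitor Serping1 (5.32) and C8g (1.40) also rose, and neither was called against KPT P6. C3, the central component, was bright in both lines, at 1.10 and 0.92 in P0 and 1.21 to 1.86 in K-LM P6, and its change of 0.56 did not pass (adjusted p = 0.0628). Cd59a, which blocks the terminal complex on the cell surface, was the 1 member that fell, by 1.31.

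The IL-6 family and STAT3 list had 26 members, 20 of them tested. Of these 9 were higher and 0 lower (median log2 change 0.68), beside 10.5% and 7.43% of all symbols. Of the 14 above background in all 5 samples 6 were higher (median 0.68), beside 6.27% of such symbols. Among the ligands, Il6 itself had levels of -9.73 and -8.92 in P0 and of -5.03, -4.81 and -1.98 in K-LM P6, at least 10.1-fold higher (log2 change 5.38, SE 0.90, adjusted p = 0.00248). Replicate 3 stood well above the other 2 samples. Without P0 replicate 1 or 2 the adjusted p for Il6 was 0.0208 and 0.0121 with limma, and the difference of 3.15 from KPT P6 was not called (adjusted p = 0.0199). Clcf1 and Cntf were not called, and Osm, Lif, Il11 and Ctf1 were too dim to be tested. Among the receptors, Osmr, which pairs with the shared chain gp130 to bind oncostatin M, rose by 2.61, while Il6st, which encodes gp130, had a change of 0.49 (adjusted p = 0.0598) and Il6ra one of -0.68 (adjusted p = 0.117), with 1 P0 value missing.

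Downstream of the receptors, the feedback inhibitor Socs3 had levels of -2.61 and -2.81 in P0 and of 0.54, 0.28 and 0.94 in K-LM P6 (log2 change 3.29, SE 0.23, adjusted p = 1.26e-05), with KPT P6 between them at -0.96. Stat3 rose by 1.34, from -1.66 and -1.90 to levels of -0.57 to -0.36. Cish (3.02, at least 3.97-fold), Bcl3 (2.00), Socs1 (1.95, at least 1.64-fold), Cebpd (1.57) and Cebpb (0.66) were the other targets called. The kinases Jak1 (-0.04), Jak2 (0.25) and Tyk2 (-0.19) did not pass the test. Over the whole list the count of higher genes was 5 without P0 replicate 1 and 6 without P0 replicate 2. With fewer samples the call was lost for Socs1 (0.0403) and Cebpd (0.0264) without either P0 sample and for Cebpb (0.0255) without P0 replicate 1 or any one K-LM P6 sample.

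The promoters of the 28 higher members of the acute-phase, complement and IL-6 lists were searched for letters bound by STAT, NF-kB and C/EBP factors. These members share a direction because only higher ones were taken. RefSeq promoters on GRCm38.p6, from 250 bases before to 50 bases after a start site, were at hand for 20 of the 28 genes, as 22 sequences. Read on both strands, the STAT letters TTCNNNGAA stood in 5 of the 22 (22.7%). Among all 32851 promoters of the same length they stood in 2726 (8.3%). The 5 came from Cish, Serpina3f, Serpina3i and Socs3, and 2 of them were overlapping windows of Serpina3f with the same match. Counted by gene, the letters stood in 4 of the 20 (20%). The C/EBP letters TTGCGCAA stood in 1 of 22, that of Orm2, and in 0.183% of all. TTGCNNCAA, a pattern 1 base longer that shares no match with it, stood in 0 of 22 and 2.08% of all. Being of another length, it is not a spelling of that site, and its counts do not bear on C/EBP letters. A pair of 10-letter kB consensus sequences stood in 0 of 22 and 0.244% of all. Other spellings of these sites were not counted. One is TTGCACAA, which stands, on one strand or the other, in the promoters of Orm3, Saa1, Saa2, Il6 and Ptx3. Another is GGGATTTTCC, a related kB spelling, in that of Il6. The counts given are thus no measure of how rare C/EBP or kB sites are in these promoters. The counts are a description of these windows, and a missing match says only that the letters were not there. Shown here are the promoters of the STAT3 target with the largest measured rise, of a Serpina3 gene, of a second feedback inhibitor with a pair of matches, and of the gene with the C/EBP match, with the matching letters in capitals.
Socs3 (chr11:117969317-117969616, minus strand): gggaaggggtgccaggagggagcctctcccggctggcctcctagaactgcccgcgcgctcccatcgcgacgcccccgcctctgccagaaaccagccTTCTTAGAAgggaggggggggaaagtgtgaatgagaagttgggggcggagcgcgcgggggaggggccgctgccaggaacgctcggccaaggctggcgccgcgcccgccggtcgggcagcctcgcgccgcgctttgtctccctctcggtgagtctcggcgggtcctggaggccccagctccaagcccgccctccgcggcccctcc
Serpina3i (chr12:104262872-104263171, plus strand): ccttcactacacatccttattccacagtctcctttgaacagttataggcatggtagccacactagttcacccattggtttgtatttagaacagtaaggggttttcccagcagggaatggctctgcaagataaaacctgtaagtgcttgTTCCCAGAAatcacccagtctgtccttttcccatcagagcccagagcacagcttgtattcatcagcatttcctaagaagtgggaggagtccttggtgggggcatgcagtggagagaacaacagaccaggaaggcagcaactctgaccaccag
Cish (chr9:107296409-107296708, plus strand): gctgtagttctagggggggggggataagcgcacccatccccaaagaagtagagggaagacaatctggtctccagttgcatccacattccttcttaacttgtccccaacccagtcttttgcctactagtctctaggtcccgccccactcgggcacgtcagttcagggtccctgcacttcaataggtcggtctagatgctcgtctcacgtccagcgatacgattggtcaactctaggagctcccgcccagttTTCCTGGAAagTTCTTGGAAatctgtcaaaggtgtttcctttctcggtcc
Orm2 (chr4:63362199-63362498, plus strand): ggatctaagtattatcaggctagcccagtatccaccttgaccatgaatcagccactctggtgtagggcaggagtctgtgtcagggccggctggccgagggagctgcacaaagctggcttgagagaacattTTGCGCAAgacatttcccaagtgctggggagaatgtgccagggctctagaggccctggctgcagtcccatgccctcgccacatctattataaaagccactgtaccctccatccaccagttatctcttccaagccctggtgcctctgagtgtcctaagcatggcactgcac

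Counted from the start site, the match lay 154 bases before it in Socs3, 102 bases before it in Serpina3i and 120 bases before it in Orm2. In Cish the pair lay at the start site itself and 11 bases after it. The 4 genes with these promoters rose by 3.29 (Socs3), 6.38 (Serpina3i), 3.02 (Cish) and 3.84 (Orm2) on the log2 scale.

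**Figure D2:**
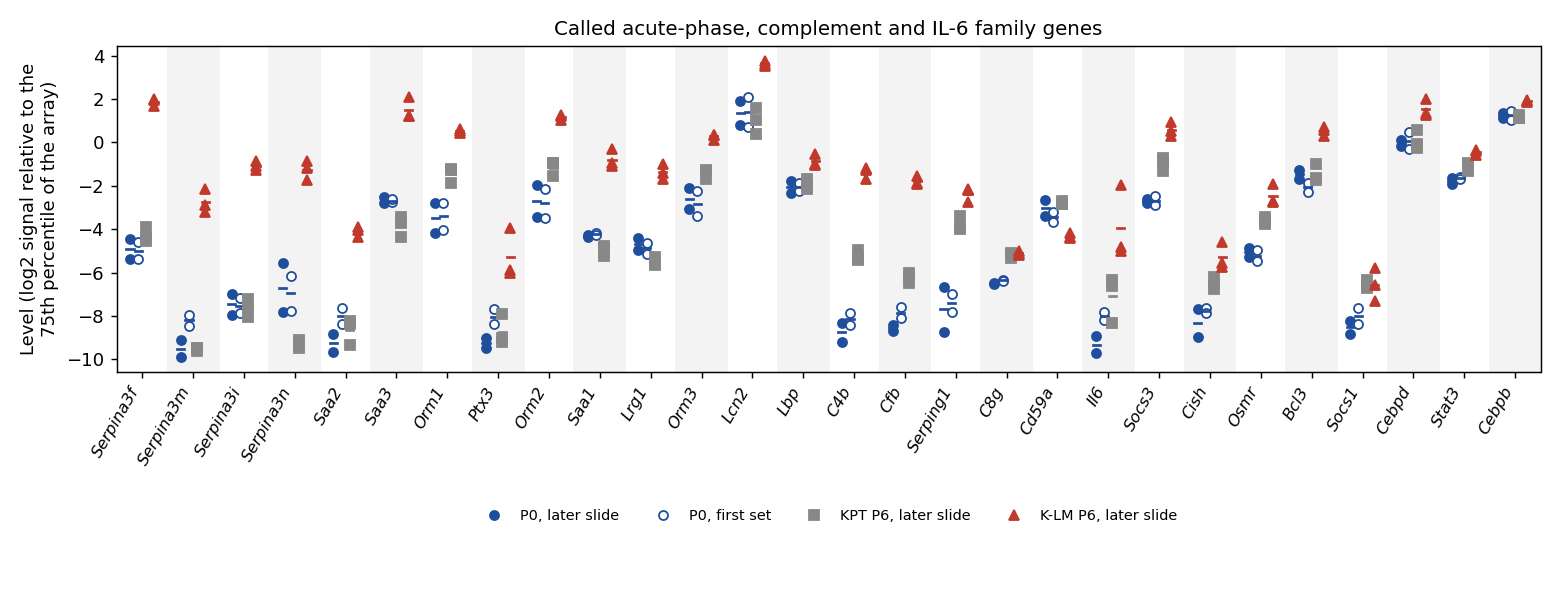
Level (log2 signal relative to the 75th percentile of the array) of the called members reported here of the acute-phase, complement and IL-6 family lists, with 1 symbol per array and short lines for group means; circles are P0 (filled on the later slide, open in the first set), squares KPT P6 and triangles K-LM P6. For Serpina3f the KPT P6 arrays lie near P0, for Serpina3n and Saa3 they lie below both P0 arrays, and for all 3 genes the K-LM P6 arrays lie far above both.

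Of 17 NF-kB genes tested, 3 were higher and 0 lower (median 0.44), beside 10.5% and 7.43% of all symbols, namely Bcl3 (2.00), the signalling adaptor Traf1 (0.93) and Tnfaip2 (0.69), and the count was 1 without P0 replicate 1, without K-LM P6 replicate 1 or without K-LM P6 replicate 3. The subunits Rela (0.16), Relb (0.22), Nfkb1 (-0.08) and Nfkb2 (0.10) did not pass the test, nor did the inhibitor Nfkbia (0.84, adjusted p = 0.0190). Of the 16 NF-kB genes above background in all 5 samples 3 were higher, beside 6.27% of such symbols. Of 13 chemokines tested 6 were higher and 0 lower (median 0.67), beside 10.5% and 7.43% of all symbols. Of the 12 above background in all 5 samples 5 were higher, beside the same 6.27%. Ccl8, which draws monocytes, had levels of -5.16 and -4.79 in P0 and of -0.32, 0.07 and -0.11 in K-LM P6 (log2 change 4.85, SE 0.16, adjusted p = 2.13e-07). Ccl7 rose by 3.27, Ccl2 by 2.33, Ccl17 by 1.39, Cx3cl1 by 1.15 and Cxcl16 by 1.11. The neutrophil chemokines Cxcl1 (-0.18), Cxcl2 (0.11), Cxcl3 (-0.45) and Cxcl5 (-0.76) did not pass the test. The call was lost for Traf1 (0.0596) without P0 replicate 1 or K-LM P6 replicate 1 or 3, for Tnfaip2 (0.035) whichever of the 5 samples was left out, for Ccl2 (0.0115) without P0 replicate 1 and for Ccl17 (0.0166) without P0 replicate 2 or K-LM P6 replicate 2 or 3.

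Genes of the interstitial matrix were higher in K-LM P6 in part, together with markers of fibroblasts. Of 36 collagens and collagen enzymes 29 were tested, 12 higher and 1 lower (median 0.88), beside 10.5% and 7.43% of all symbols. Among the 10 collagen chains tested, 7 were higher (median 3.76). Of the 5 chains above background in all 5 samples 2 were higher, beside 6.27% of such symbols. Col1a1, a chain of collagen I, had levels of -6.86 and -7.77 in P0 and of -1.56, -2.15 and -0.30 in K-LM P6 (log2 change 5.98, SE 0.64, adjusted p = 0.000230), and its partner Col1a2 went from -6.38 and -6.69 to -0.74, -0.99 and 0.64 (6.17). Neither differed from KPT P6 by the test. The chains Col6a3 (8.17), Col6a1 (4.29, at least 8.83-fold), Col8a1 (3.81, at least 6.16-fold), Col5a3 (3.70, at least 4.76-fold) and Col5a1 (1.62) rose too, while Col3a1 (1.59, adjusted p = 0.0349) and Col12a1 (-1.06, adjusted p = 0.0299) were not called. Of the enzymes, Adamts2 (7.47), Fkbp10, a collagen chaperone (6.82, at least 22.9-fold), Loxl2, a crosslinking oxidase (1.33), and the lysyl hydroxylases Plod3 (1.12) and Plod1 (1.04) were higher, and the chaperone Serpinh1 was lower (-0.78). Significance was lost for Col5a3 (0.0572) whichever of the 5 samples was left out, for Loxl2 (0.0327) without either P0 sample or K-LM P6 replicate 1, for Plod1 (0.0186) without either P0 sample and for Serpinh1 (0.0416) without P0 replicate 2 or any one K-LM P6 sample.

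The 12 fibroblast markers were read beside them. Of the 8 tested, 7 were higher in K-LM P6: Dcn, Thy1, Col1a2, Col1a1, Pdgfrb, Cd248 and Cspg4, beside 10.5% of all symbols. Only 2 of the 8 were above background in all 5 samples, and 1 of these was higher. Their summed signal, relative to the 75th percentile, was 0.0486 to 0.0680 over the 4 P0 arrays, 1.62, 1.20 and 3.63 in K-LM P6 and 0.723 to 1.34 in KPT P6. Pdgfra, Lum, Tcf21 and Fap were too dim to be tested. Replicate 3, the K-LM P6 sample with the largest sum, had the highest level of the 3 for all 7 markers called. It was also highest for 8 of the 12 higher collagen and enzyme genes, 10 of 11 matrix proteoglycans and glycoproteins, 6 of 7 basement membrane genes and 7 of 8 proteases. In other lists it was highest for 7 of 9 IL-6 family genes and 5 of 14 acute-phase genes. For interferon and MHC class I genes this was so for 2 of 9, and for leukocyte markers for 0 of 3. The share of all higher symbols with their highest level in replicate 3 was not counted. Some of the fibroblast markers are members of the matrix and adhesion lists too. Fewer cells of a type and less RNA per cell cannot be told apart in such samples, and the part of other cells in the cultures was not tested. Without K-LM P6 replicate 3, 11 collagen and enzyme genes, 10 matrix genes and 5 proteases were called higher.

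Matrix proteoglycans and glycoproteins followed the same course. Of 34 members 18 were tested, 11 higher and 2 lower (median 1.89), beside 10.5% and 7.43% of all symbols. Of the 9 above background in all 5 samples 3 were higher and 1 lower (median 0.24), beside 6.27% and 7.64% of such symbols. Fn1 had levels of -9.49 and -9.01 in P0 and of -1.56, -1.45 and 0.39 in K-LM P6, and Dcn, decorin, levels of -7.13 and -8.54 and of -1.32, -2.17 and -0.68 (log2 change 6.45, SE 0.46, adjusted p = 1.64e-05). Thbs2 (3.98, at least 3.48-fold), Fbn1, fibrillin 1 (3.94, at least 3.43-fold), Postn, periostin (3.66, at least 3.34-fold), Bgn, biglycan (2.71), and Sparcl1 (2.56, at least 1.24-fold) were dim in P0. Aebp1 (2.04), Fbln2 (1.74) and Thbs3 (0.96) were measured in all samples and higher. The 2 lower members were Ogn, described above, and Fndc1, which fell from -3.21 and -3.33 to -6.43, -5.91 and -5.10. Sparc, which was bright at 3.11 to 3.69 in both lines, had a change of 0.22 (adjusted p = 0.392). With dim values raised to a common floor, 7 members were called higher. With fewer samples the call was lost for Thbs2 (0.0447) without either P0 sample or K-LM P6 replicate 2, for Fbn1 (0.0207) and Sparcl1 (0.0227) without P0 replicate 1, for Bgn (0.0124) without P0 replicate 2 and for Thbs3 (0.0218) without P0 replicate 2 or K-LM P6 replicate 1 or 2.

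Of 16 basement membrane genes tested, 7 were higher and 0 lower (median 0.71), beside 10.5% and 7.43% of all symbols. But of the 8 above background in all 5 samples only 1 was higher, Col18a1 (1.05), beside 6.27% of such symbols. Nid1, nidogen (5.09, at least 8.67-fold), Lamb1 (4.98, at least 14.1-fold), Col4a1 (4.90, at least 7.47-fold), Lamb3 (3.98), Col4a2 (2.58) and Hspg2, perlecan (2.38), were the others, and the count was 4 without P0 replicate 1 or without P0 replicate 2. Of 13 proteases and inhibitors tested, 8 were higher and 0 lower (median 1.22), and 4 of the 9 above background in all 5 samples, beside the same shares. Mmp13, a collagenase, went from -7.54 and -8.89 to -4.36, -4.18 and -2.74 (log2 change 4.46, at least 11.2-fold), and Mmp3, stromelysin, from -5.73 and -8.47 to -3.34, -3.42 and -1.68 (4.29). Serpinb2 (5.65, at least 10.2-fold), Timp3 (2.51), Plau, urokinase (1.47), Mmp2 (1.18) and Plat (0.98) were also higher. Plau, Mmp2 and Timp3 had log2 differences of K-LM P6 from KPT P6 of -1.16, -1.57 and -1.18, and the first 2 were called lower in K-LM P6. Without P0 replicate 2 the count of higher proteases was 3, and without K-LM P6 replicate 2 or 3 it was 5. The call was lost for Nid1 (0.0165) without either P0 sample, for Col4a1 (0.0102) without P0 replicate 1, for Col4a2 (0.0452) whichever of the 5 samples was left out, and for Col18a1 (0.0274) without P0 replicate 2 or K-LM P6 replicate 1 or 2. Among the proteases it was lost for Mmp3 (0.0161) and Timp3 (0.0125) without P0 replicate 2, for Plat (0.0235) without P0 replicate 2 or any one K-LM P6 sample and for Mmp2 (0.0564) without either P0 sample or K-LM P6 replicate 2 or 3.

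**Figure D3:**
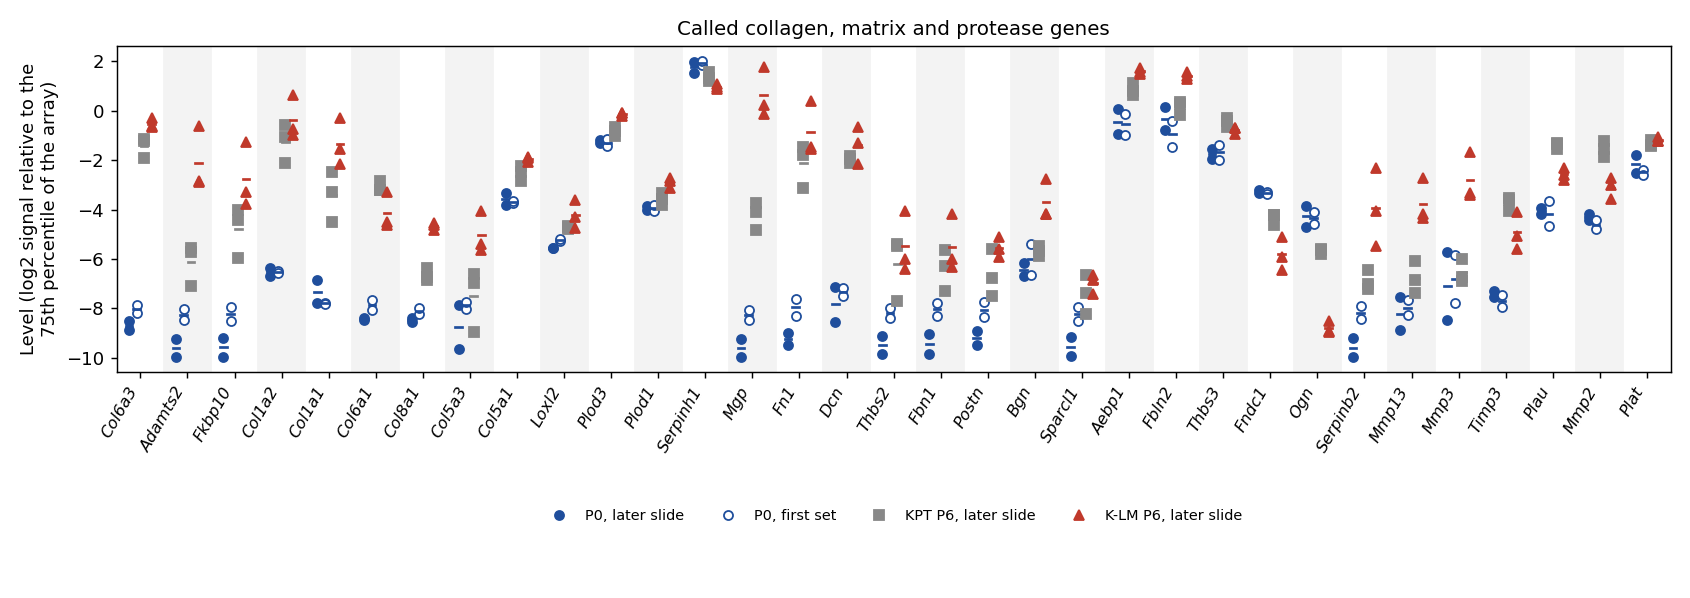
Level (log2 signal relative to the 75th percentile of the array) of the called members reported here of the collagen, matrix and protease lists, with 1 symbol per array and short lines for group means; symbols as in the plot of acute-phase genes. Most genes with P0 levels under -8 have their highest K-LM P6 triangle, replicate 3, apart from the other 2, and KPT P6 (squares) is above P0 for most genes.

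Keratins, the intermediate filament proteins of epithelia, were mostly higher in K-LM P6 where they could be tested. Of 9 keratins tested 7 were higher and 0 lower (median 2.34), beside 10.5% and 7.43% of all symbols. Of the 6 above background in all 5 samples 4 were higher, beside 6.27% of such symbols higher and 7.64% lower. Krt19, a keratin of ducts and of mesothelium, had levels of -7.22 and -8.53 in P0 and of -1.82, -2.45 and -1.25 in K-LM P6 (log2 change 6.03, SE 0.42, adjusted p = 1.34e-05). Krt17 rose by 3.73, Krt23 by 3.06 (at least 1.86-fold), Krt13 by 2.34, Krt16 by 1.28 and Krt80 by 1.06, and Krt8 (-0.27) and Krt18 (-0.20) did not pass the test. In the list of adhesion and transition genes, 27 members were tested, 8 higher and 2 lower (median 0.24). Of the 20 above background in all 5 samples 3 were higher and 2 lower, both counts beside the same shares. Both kinds of gene were among the higher ones, the mesenchymal Thy1 (6.28, at least 18.5-fold), Acta2 (5.86), Tagln (4.11) and Cdh2, N-cadherin (3.80, at least 5.43-fold), and the epithelial Cldn1 (4.59, at least 15.1-fold), Esrp1, a splicing factor (3.07), and Cldn4 (1.29). Snai1 was the 1 transcription factor called (1.58), while Zeb1 (0.03), Zeb2 (0.22), Twist2 (0.02) and the filament gene Vim (0.24) did not pass the test, and Cdh1, E-cadherin, was too dim to be tested. Cdh3, P-cadherin, and S100a4 were lower (-0.80 and -1.10). Significance was lost for Krt23 (0.0187) without P0 replicate 1, for Krt80 (0.0546) whichever of the 5 samples was left out, for Cdh3 (0.0159) without either P0 sample or K-LM P6 replicate 2 and for S100a4 (0.0312) without P0 replicate 2 or K-LM P6 replicate 1.

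Kidney lineage genes moved in both directions. Of 38 kidney lineage genes 19 were tested, 4 higher and 6 lower (median -0.01), beside 10.5% and 7.43% of all symbols. Among the 13 above background in all 5 samples 1 was higher and 5 lower (median -0.43), beside 6.27% and 7.64% of such symbols. The falls were in Aqp5 (-4.58), Gpd1 (-3.40), the N-acetyltransferase Nat8 (-3.02), Unc93a (-1.79) and the patterning factors Emx2 (-1.12) and Hoxa11 (-0.89). Aqp5 and Gpd1 were also among the 10 largest falls, and the list was chosen with earlier results of these data known. Its counts are thus no independent evidence on the kidney lineage. Wt1, a transcription factor of the embryonic kidney and of mesothelium, was measured in 1 of 2 P0 samples, at -5.56 and -8.97, and in all K-LM P6 samples, at -2.08, -1.84 and -1.83 (log2 change 5.35, SE 0.78, adjusted p = 0.00122). Pax8, a factor of tubule and ureteric epithelium, rose by 1.00, from -3.46 and -3.26 to -2.43 to -2.31, and the brush border genes Ggt1 (1.89) and Cubn (1.20) rose as well. Without P0 replicate 1, K-LM P6 replicate 1 or K-LM P6 replicate 3 the count of lower genes was 3. With fewer samples the call was lost for Pax8 (0.0153) without P0 replicate 1, for Hoxa11 (0.0365) and Unc93a (0.0339) without P0 replicate 1 or K-LM P6 replicate 1 or 3 and for Emx2 (0.0431) without either P0 sample or K-LM P6 replicate 1 or 3.

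Markers of other cell types were measured beside these genes, and their counts stand beside 10.5% of all symbols higher. Of 9 mesothelial markers 4 were tested and 3 were higher, Krt19, Wt1 and Msln, mesothelin (2.93). The list's summed signal, led by Krt8, was 2.99 to 3.80 in P0, 3.19 to 4.38 in K-LM P6 and 3.3 to 4.21 in KPT P6. Upk3b, Upk1b, Lrrn4 and Calb2 were not tested. Of 15 leukocyte markers 8 were tested and 3 higher, Lcp1 (7.03), Mpeg1 (2.26) and Csf1r (0.91). The list's sums were 2.58 to 3.16 in P0, 3.48 to 4.96 in K-LM P6 and 4.46 to 5.81 in KPT P6. Among the rest of the list, Ptprc, Adgre1, Tyrobp, Fcer1g, Laptm5 and Ms4a1 were too dim to be tested. Against the first P0 arrays Csf1r turned to -0.29. The call was lost for Csf1r (0.0274) without P0 replicate 1 or K-LM P6 replicate 1 or 2. Of 12 lung epithelial markers 3 were tested and 1 was higher, Scgb1a1, the club cell protein (2.45). The list's sums were 0.579 to 0.877 in P0, 0.585 to 0.626 in K-LM P6 and 0.853 to 1.05 in KPT P6. The surfactant genes Sftpa1, Sftpb, Sftpc and Sftpd were too dim to be tested. Neither of the 2 endothelial markers tested was called.

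The counts of the remaining lists stand beside 10.5% of all symbols higher and 7.43% lower, or 6.27% and 7.64% of those above background in all 5 samples. Of 12 ABC transporters tested 5 were higher and 2 lower (median 0.22), but of the 7 above background in all 5 samples 1 was higher and 1 lower (median -0.17). Abcb1b (5.23, at least 10.0-fold), Abcb4 (5.14, at least 10.0-fold) and Abcb1a (4.74, at least 9.10-fold), closely related pumps whose probes may share signal, with Abcg1 (3.06, at least 4.78-fold) and Abcc3 (1.00), rose. The cholesterol exporter Abca1 fell from -4.27 and -4.26 to -7.65, -7.47 and -6.95, at least 6.70-fold lower, and Abcg2 by 0.66. Of 30 cell cycle genes tested 6 were higher and 4 lower (median -0.26), and of the 27 above background in all 5 samples 3 were higher and 4 lower (median -0.29). The higher ones were the D cyclins Ccnd1 (2.95), Ccnd2 (3.96, at least 4.56-fold) and Ccnd3 (0.75) and the inhibitors Cdkn2a (4.33, at least 4.46-fold), Cdkn2b (3.54, at least 2.62-fold) and Cdkn1a (1.60), the lower ones Cdkn2c (-1.31), Mcm5 (-0.78), Ccna2 (-0.68) and Ccne1 (-0.66). Mki67 (-0.64, adjusted p = 0.0779) did not pass the test. All 6 higher genes had their highest level in K-LM P6 replicate 3, and without P0 replicate 1 the counts were 3 and 2. Significance was lost for Ccnd2 (0.0378) without either P0 sample, for Cdkn2b (0.0205) without P0 replicate 1, for Ccnd3 (0.0267) and Ccna2 (0.0321) whichever of the 5 samples was left out, for Ccne1 (0.0417) without P0 replicate 1 or any one K-LM P6 sample and for Abcg2 (0.0204) without P0 replicate 1 or K-LM P6 replicate 1 or 3.

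Of 32 interferon and MHC class I genes tested, all above background in every sample, 9 were higher and 1 lower (median 0.41). They were Oas2 (3.04), Gbp2 (1.91), Stat2 (1.90), Irf7 (1.74), Psmb9 (1.73), Oas3 (1.69), Ifit1 (1.58), Usp18 (1.02) and Gbp3 (0.84). Ifit2 was lower (-1.10), and Isg15 (0.07) and B2m (0.38) were not called. The count of higher genes was 6 without P0 replicate 2. Of 20 hypoxia targets tested 5 were higher and 0 lower (median 0.54), and 4 of the 15 above background in all 5 samples, the carbonic anhydrase Car9 (2.14), the glucose transporter Slc2a1 (1.23), Adm (0.98), Hif1a (0.83) and Hk2 (0.79). Vegfa (-0.42) and Vhl (0.10) did not pass the test. Without P0 replicate 2 the count was 3. In the insulin-like growth factor axis 8 of 21 genes were tested, and Igfbp4 (1.16) and Igfbp6 (0.85) rose as Igf1 fell. Of 19 annexins and S100 proteins tested 2 were higher, Anxa8 and S100a8 (3.89), which is the share of all symbols that were higher (10.5%), and 3 were lower, S100a3 (-2.18), S100a4 (-1.10) and S100a1 (-0.80). Without P0 replicate 2, or without K-LM P6 replicate 1, 1 was higher and 1 lower. With fewer samples the call was lost for Gbp3 (0.0359) without either P0 sample or K-LM P6 replicate 1 or 3, for Oas3 (0.0136) without P0 replicate 1 or K-LM P6 replicate 1, for Gbp2 (0.0103), Ifit1 (0.0188) and Car9 (0.0185) without P0 replicate 2, for Hk2 (0.0476) without P0 replicate 2 or any one K-LM P6 sample, for Igfbp4 (0.0215) without P0 replicate 2 or K-LM P6 replicate 1 or 2, for S100a8 (0.0309) and S100a4 (0.0312) without P0 replicate 2 or K-LM P6 replicate 1 and for S100a1 (0.0158) without either P0 sample or K-LM P6 replicate 1.

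**Figure D4:**
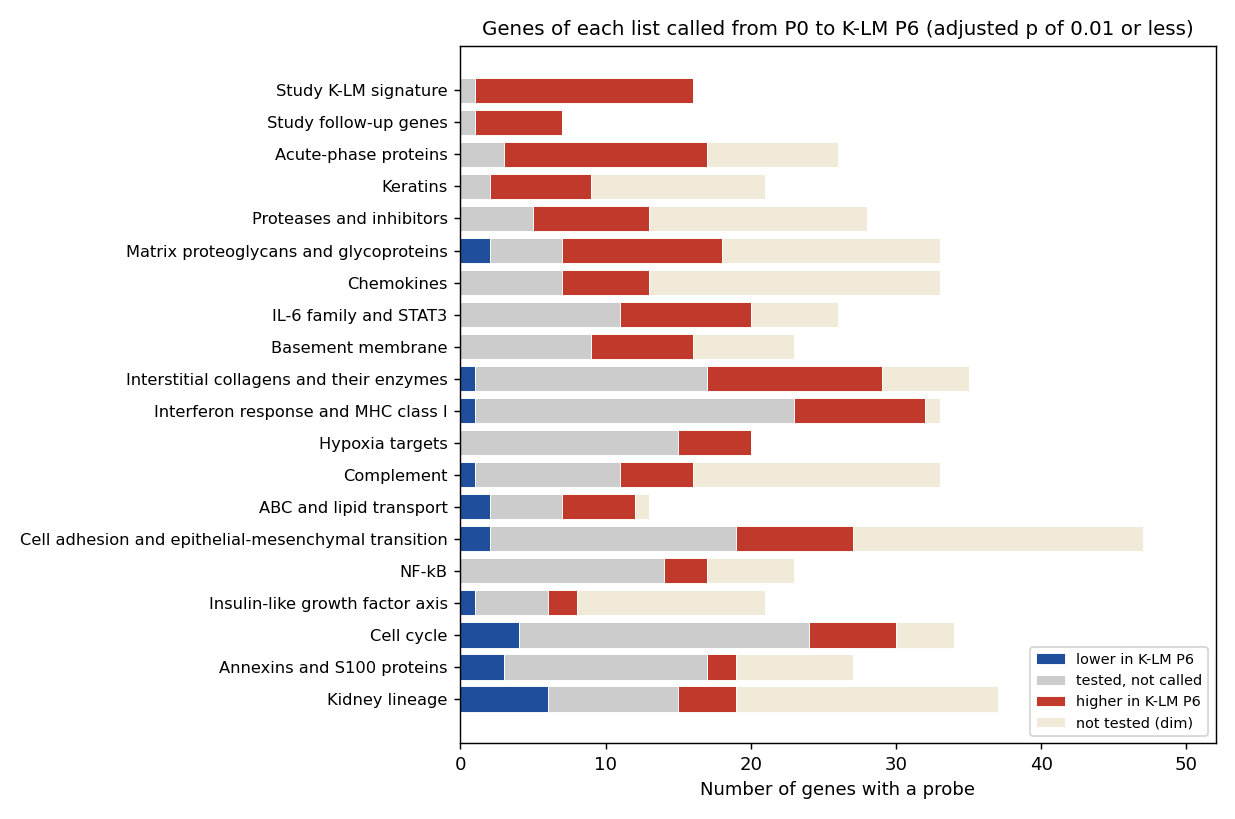
Number of genes of each list (horizontal axis, genes with a probe) that were lower in K-LM P6, tested and not called, higher in K-LM P6, or too dim to be tested, by limma with an adjusted p of 0.01 or less. Acute-phase proteins have 14 higher and 0 lower genes of 17 tested, and the kidney lineage list 4 higher and 6 lower of 19.

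The study built a signature of the K-LM route, in human gene names, from these samples and followed 7 further genes, so the counts for them are no independent evidence of their direction. The signature was read here through 16 mouse genes of the same letters, with both Serpina3n and Serpina3m standing for SERPINA3 and a human gene without such a counterpart left out, so these are not the study's own members 1 to 1. Of the 16 mouse genes 15 were higher, with a median log2 change of 4.11, beside 10.5% of all symbols. On the same K-LM P6 arrays 11 of the 16 differed from KPT P6, all higher in K-LM P6, beside 6.27% of all symbols. Besides genes given above it held the RNA-binding protein gene Pcbp3 (4.51, at least 5.89-fold), Kctd17 (3.93, at least 5.42-fold) and Uck2, a uridine-cytidine kinase (1.89, from -0.18 and -0.35 to between 1.53 and 1.77). Iqsec3, an exchange factor for ARF proteins, was the 1 member not called. It had levels of -2.41 and -2.44 in P0 on the later slide and of -1.21, -2.20 and -2.24 in K-LM P6 (log2 change 0.54, adjusted p = 0.234), but levels of 0.36 and 0.53 on the first P0 arrays, against which the log2 change was -2.33 (adjusted p = 0.000929). Of the 7 other genes, Ppef1 (5.70, at least 36.2-fold), Tnfsf13b, the B cell factor BAFF (5.27, at least 17.2-fold), Nt5e, the ectonucleotidase CD73 (4.99, at least 7.58-fold), Postn (3.66), Samsn1 (3.46, at least 2.60-fold) and Cd44 (1.77) were higher, and Aldh1a1 was not called (3.23, adjusted p = 0.0272). Only Samsn1 among these 7 was also called against KPT P6, with K-LM P6 at least 2.56-fold higher (log2 difference 2.16).

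Levels over the passages are a description, since the arrays of P1 to P5 lay on other slides than P6 and P1 and P2 had 1 array each. Several of the genes that rose were not raised steadily. Saa3 had a median level of -2.69 on the first P0 arrays and of 3.52, -1.21, -1.39, 2.57, 2.67 and 1.23 from P1 to P6. Mgp stood at 3.33, -3.08, -5.22, 2.37, -0.45 and 0.25, and Il6 at 0.71, -5.79, -5.70, -0.73, 0.19 and -4.81. Each of these 3 genes was thus high in the P1 array, lower at P2 and P3, and high again at P4, and Fn1 (2.22 at P1, -5.64 at P3, 1.27 at P4), Col1a1 (2.55, -6.96 and 0.87) and Tagln (2.88, -1.18 and 0.88) took the same course. Cfb was at -2.86 in the P1 array, was not above background in the P2 array or any of the 5 P3 arrays, and from P4 to P6 its medians were -3.56, -2.34 and -1.89.

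Other genes took other courses. Anxa8 was between 1.84 and 3.36 on every K-LM array from P1 to P6. Gpd1 had medians of -2.42, -1.64, -3.12, -3.51, -4.12 and -3.87 from P1 to P6, against -0.49 on the first P0 arrays. Igf1 was already at -5.23 in the P1 array and lowest at P6 (-7.80), and Ogn was above background on 1 of the 17 K-LM arrays. Among the falls, Echdc2 was not lower in the P1 array (-2.15) than on the first P0 arrays (-2.59), and Gsta3 was at -5.73 in the P1 array but at -1.90 in the P2 array, against -2.24 on the first P0 arrays. Serpina3n had medians of -1.21, -6.98, -7.95, -5.32, -5.14 and -1.19 from P1 to P6, so that the P1 array was as high as P6. Krt20 stood at -0.73, -3.26, -2.64, -3.85, -1.10 and 0.79.

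**Figure D5:**
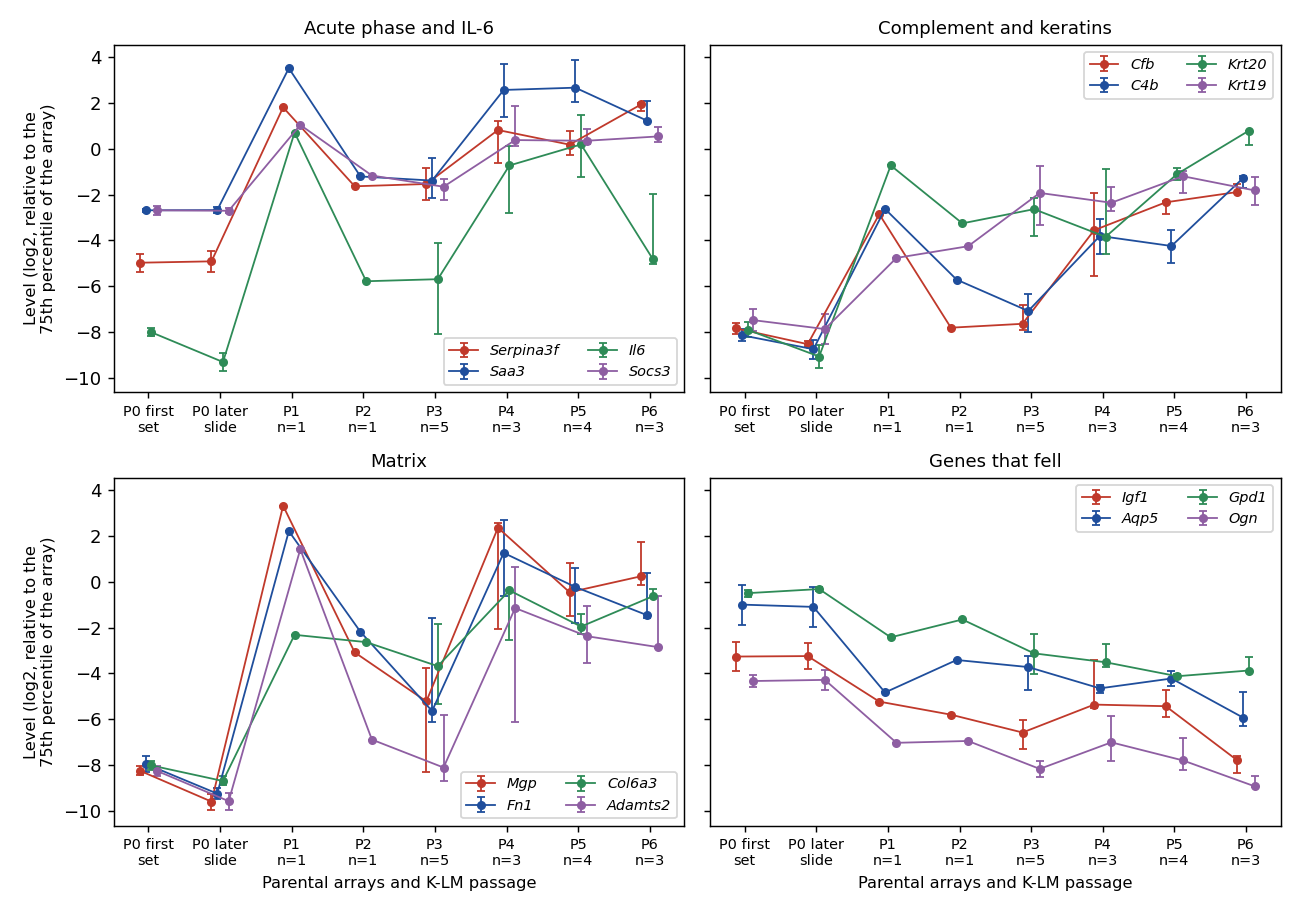
Median level (points, log2 signal relative to the 75th percentile of the array) with the lowest and highest array (bars) of 16 genes in P0 and in K-LM P1 to P6, with the number of arrays under each passage. Most of the acute-phase and matrix genes are high at P1, lower at P2 and P3 and high again at P4, and the 4 genes shown that fell have medians below P0 from P1 on.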

How the data were processed

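Gene expression of cultured RENCA sub-lines had been measured on 1-colour Agilent SurePrint G3 Mouse arrays labelled with Cy5. Per the file headers, the deposited scanner files hold a processed signal for each spot, an intensity from which Agilent Feature Extraction had subtracted the background and which was not scaled between arrays (software 11.0.1.1, and 12.0.2.2 for the later slide). The authors also deposited a table of log2 values, which matched quantile-normalized log2 raw median signals to within 0.201, and it was used as an alternative. The labels' extraction text names a tissue homogeniser, while the study's methods describe cultured lines.

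From 62976 spots, 3671 control spots were left out, spots of a probe were averaged, and each array's 75th percentile over 11287 probes above background on all 70 arrays was subtracted. Linear models and empirical Bayes tests used limma 3.58.1 in R 4.3.3 on the 8 arrays of the later slide with group as the only term, for probes above background on at least 2 of the 5 P0 and K-LM P6 arrays (of the 8 arrays for K-LM P6 against KPT P6). P-values are 2-sided and adjusted over all probes tested (Benjamini-Hochberg, 0.01 or less). A gene is its brightest probe, named through RefSeq (GRCm38.p6); 193 probes had a missing value on 1 or more of the 8 arrays. A "fold of at least" sets the bright group's mean against, on each dim array, the lowest signal above background or the probe's own, whichever was higher. The genes named are the 10 largest called rises and falls whose groups do not overlap, and members of gene lists; a few of these are not reported here by name, and counts include them. Members and lists were chosen with earlier results of these data known. The fitting step was tested on simulated data. The number of arrays limits the precision. P0 and K-LM P6 replicates with the same number did not deviate together, so they were not treated as pairs. Alternatives were other scalings, backgrounds, filters, P0 arrays, covariates and each replicate left out.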

Additional observations from a re-analysis of the deposited data

Results flagged for a closer look

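Changes from P0 that differed between the kidney-to-lung and the kidney tumour line were flagged by limma's test of K-LM P6 minus KPT P6. They concerned 25 genes among 19 of the largest rises and falls, 16 of the signature and 7 others that the study followed. Of all symbols tested, 15% were called in this test. The largest rises and falls and the signature were picked from the same K-LM P6 samples, so the count of 25 is no separate support. Further list members that differed are given with their lists above. Among secreted inflammatory and signalling genes the log2 difference was 8.04 for Serpina3n, 6.76 for Serpina3m, 4.55 for Saa2, 4.45 for Cfb, 4.17 for Saa1, 4.14 for Lrg1, 2.00 for Bcl3 and 1.55 for Socs3. Among matrix and keratin genes it was 4.86 for Mgp, 4.00 for Adamts2, 2.61 for Krt20 and 2.11 for Krt19.

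For the remaining genes that were higher in K-LM P6 it was 2.45 for Pcbp3, 2.16 for Samsn1, 1.87 for Uox, 1.11 for 4930550L24Rik and 0.86 for Uck2. Genes lower in K-LM P6 had differences of -3.37 for Echdc2, -3.23 for Igf1, -3.12 for Ogn, -2.96 for Cysltr1, -2.49 for Aqp5, -2.18 for Plekhg4, -2.13 for Ces2g and -1.82 for Themis. Serpina3n, Serpina3m, Saa2, Pcbp3 and Samsn1 were not above background in KPT P6, and Igf1, Ogn, Plekhg4 and Themis were not above background in K-LM P6, so their differences depend on the dim values, and as bounds they are at least 63.8-fold, 22.6-fold, 8.93-fold, 5.48-fold and 2.56-fold higher and at least 5.11-fold, 2.55-fold, 1.68-fold and 1.16-fold lower. Of the K-LM P6 samples, replicate 2 had the lowest Echdc2 level, at -7.75 against -5.63 and -4.81.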

How the results depend on the processing

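With dim probes not filtered out, 1653 probes were called from P0 to K-LM P6, and the count was 1757 from the arrays of the 2 groups alone, 1998 with the long mRNA index as a covariate, 573 in a test against a log2 change of 1 (limma's treat) and between 1832 and 2421 when 1 replicate was left out, against 3093. Other scalings, normexp background, a floor under dim values and the first P0 arrays gave 2335 to 4136, and 76.7% of the calls were shared with the first P0 arrays. The share of calls that were higher, 54.8%, was 43.5%, 44.8% and 44.5% with the percentile over all probes, quantile normalization and the authors' values. For K-LM P6 against KPT P6 the count of 2983 was 1136 without the filter and 1145 to 2158 with 1 replicate left out. With the replicate number as a block the counts were 1556 and 432; same-numbered P0 and K-LM P6 samples correlated at 0.05 and 0.02 in their deviations and K-LM P6 and KPT P6 samples at 0.30 and 0.03, so the numbers were not taken to pair them.

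Of 172 genes followed, those of Csf1r (-0.29 against the first P0 arrays) and Iqsec3 (-2.33 against the first P0 arrays, -0.08 with both array sets and a slide term) turned sign, and that of Sparcl1 was 0.00 with the floor. The cause was not tested. Each setting that left out 1 replicate kept 129 to 150 of the genes on the same side of the threshold, and 72 genes kept it under every alternative that gave them a value. P0 had 2 samples, and genes below background in it have only a bound.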
